A study of Pagiophloeus tsushimanus with 15 samples.

Results

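Oxidative phosphorylation is carried out by 5 protein complexes of the inner mitochondrial membrane, and its genes were examined here in whole larvae of Pagiophloeus tsushimanus, a weevil that feeds on camphor trees. Members were the unigenes, the assembled transcripts of the deposited table, whose best protein match is described in it with the words NADH dehydrogenase, succinate dehydrogenase, cytochrome b-c1, cytochrome c oxidase or ATP synthase. This gave 124 of 34486 unigenes. The words assign 59 members to complex I (NADH dehydrogenase), 6 to complex II (succinate dehydrogenase), 7 to complex III (cytochrome b-c1), 30 to complex IV (cytochrome c oxidase) and 22 to complex V (ATP synthase). RNA-seq was done on 15 libraries, 3 from each of 5 diets: the additive that the labels call EO at 10 mg/g, EO at 30 mg/g, D-camphor (a monoterpenoid ketone) at 17 mg/g, D-camphor at 41 mg/g, and an untreated diet. The series' design text sets terpenoid-infused against terpenoid-free diets, and the 4 treated diets are called terpenoid diets here. All groups share the species, the larval stage and the whole body as source, and no strain, age or pooling is given in the labels. Values are in TPM, a unit that corrects for transcript length and is scaled to an equal total in every library. TPM keeps no read depth, so counting precision is unknown. Nothing in the labels says that the 3 libraries of a diet came from separate animals, so the p-values measure only the spread between these libraries.

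Complex I and complex II feed electrons from NADH and from succinate into ubiquinone, complex III passes them to cytochrome c, and complex IV hands them to oxygen. Complexes I, III and IV pump protons, and complex V uses the proton gradient to make ATP. A few core subunits are encoded in the mitochondrial genome, while the other subunits and the assembly factors are nuclear genes whose products are imported into the mitochondrion. Complex II is entirely nuclear encoded.

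The 124 members are not 124 genes of the weevil. A beetle protein was the best match of 66 members, of which 41 are nuclear encoded subunits, 11 are assembly factors and 14 are mitochondrially encoded subunits. The other 58 had their best match outside the beetles, 41 of them in other animals, among which 9 matched acorn worms, 12 lancelets and 13 echinoderms, 14 in other insects and 3 in entries with no species. A mean of at least 1 TPM over the 15 libraries was reached by 65 members, which are the ones tested: 35 of the 41 nuclear subunits, 11 of 11 assembly factors, 13 of 14 mitochondrial subunits and 6 of the 58 without a beetle match. The 59 members under this level had means of 0.0647 to 0.934 TPM. Proteins of the same chain whose description uses other words, among them cytochrome b, cytochrome c1, cytochrome c and further core subunits of complex I, fall outside the rule and are given apart.

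As a group, the mitochondrially encoded members were far more abundant than the nuclear ones on the length-corrected scale. The highest mean was that of cytochrome c oxidase subunit 1, the catalytic core of complex IV (TRINITY_DN8201_c1_g1, 4199.8 TPM). Subunit 1 of complex I (TRINITY_DN37919_c1_g1, 3433 TPM) and subunit II of cytochrome c oxidase (TRINITY_DN34686_c0_g1, 3129 TPM) followed. Among nuclear subunits, cytochrome c oxidase subunit 7C (TRINITY_DN2551_c0_g2) had a mean of 569 TPM and the ATP synthase lipid-binding protein, which forms the proton-driven ring (TRINITY_DN15839_c0_g1), of 529.8 TPM. The nuclear subunits fell into 2 ranges of level with nothing between 6.15 and 39.1 TPM, and a line at 10 TPM, drawn after the levels were seen, separates 25 abundant subunits from 10 tested ones below it. Each of the 25 was at 26.7 TPM or more in every library, so that the filter on low values does not bear on them. They comprise 11 subunits of complex I, 2 of complex II, 2 of complex III, 4 of complex IV and 6 of complex V.

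Before the comparisons, 3 libraries have to be set apart. Summed markers of epidermis and cuticle, 53 unigenes, reached 33411 TPM in the first EO 10 mg/g replicate and 17555 TPM in the first EO 30 mg/g replicate. They reached 21692 TPM in the second D-camphor 41 mg/g replicate, and 343 to 8124 TPM in the other 12 libraries. Among these 12, untreated libraries held 361 to 859 TPM and D-camphor 17 mg/g libraries 1036 to 4896 TPM. The remaining EO libraries held 343 to 1104 TPM, and the remaining D-camphor 41 mg/g ones 2766 and 8124 TPM. Leaving out 3 libraries thus does not level these markers between the diets. Of the 53, 0 were at 0 in all 3 libraries on D-camphor 41 mg/g and 8 in all 3 untreated ones. The same 3 libraries scored highest on the first principal component of all unigenes tested. The tested markers are part of its input and its sign was set to rise with the marker sum. Its ranking is therefore not independent of these markers. The medians of the abundant nuclear and of the mitochondrial subunits are given below with and without them, while sums and single members are given with them.

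In these libraries the 25 abundant nuclear encoded subunits leaned towards higher values on EO 30 mg/g and on D-camphor 17 mg/g than in untreated larvae, with small differences. The 10 lower ones showed no common direction on these diets. On EO 10 mg/g the median log2 fold change of the 25 was 0.10 in TPM and 0.25 under median-of-ratios scaling, and on D-camphor 41 mg/g it was -0.04 in TPM and 0.01 under that scaling. The 13 tested mitochondrially encoded subunits were also highest on EO 30 mg/g, but 12 of them were lower on D-camphor 17 mg/g than in untreated larvae. No member passed an adjusted p of 0.05 in any of the 8 comparisons (limma on log2(TPM + 1), Benjamini-Hochberg adjustment over 12510 unigenes). On that scale the fold changes of low genes are understated. The same fit called few unigenes of any kind. They were 0.0719% of those tested for EO 10 mg/g against untreated, 0.184% for EO 30 mg/g, 0.04% for D-camphor 17 mg/g, 0.016% for D-camphor 41 mg/g and 0.0879% for the mean of the 4 terpenoid diets. For EO 30 against EO 10 mg/g the share was 0.00799%, for D-camphor 41 against 17 mg/g 0%, and for the difference between these dose steps 0%.

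At an unadjusted p under 0.05, the 65 tested members gave the following counts. On EO 10 mg/g, 0 were higher and 2 lower than in untreated larvae, against 1.22% and 5.08% of all unigenes. With EO at 30 mg/g, 15 were higher and 2 lower, against 3.46% and 5.34%. D-camphor at 17 mg/g had 7 higher and 1 lower, against 4.56% and 1.68%, and D-camphor at 41 mg/g had 0 higher and 1 lower, against 2.35% and 3.89%. For the mean of the 4 diets 1 was higher and 1 lower, against 2.57% and 3.58%. Comparing EO 30 with EO 10 mg/g, 4 were higher and 0 lower, against 3.63% and 1.34%. Comparing D-camphor 41 with 17 mg/g, 0 were higher and 15 lower, against 1.99% and 7.52%. The dose step of D-camphor minus that of EO had 0 higher and 18 lower, against 1.81% and 9.77%. The values that follow are descriptions of levels in these libraries. In RNA from whole bodies, fewer cells rich in mitochondria and less RNA per cell cannot be told apart.

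**Figure D1:**
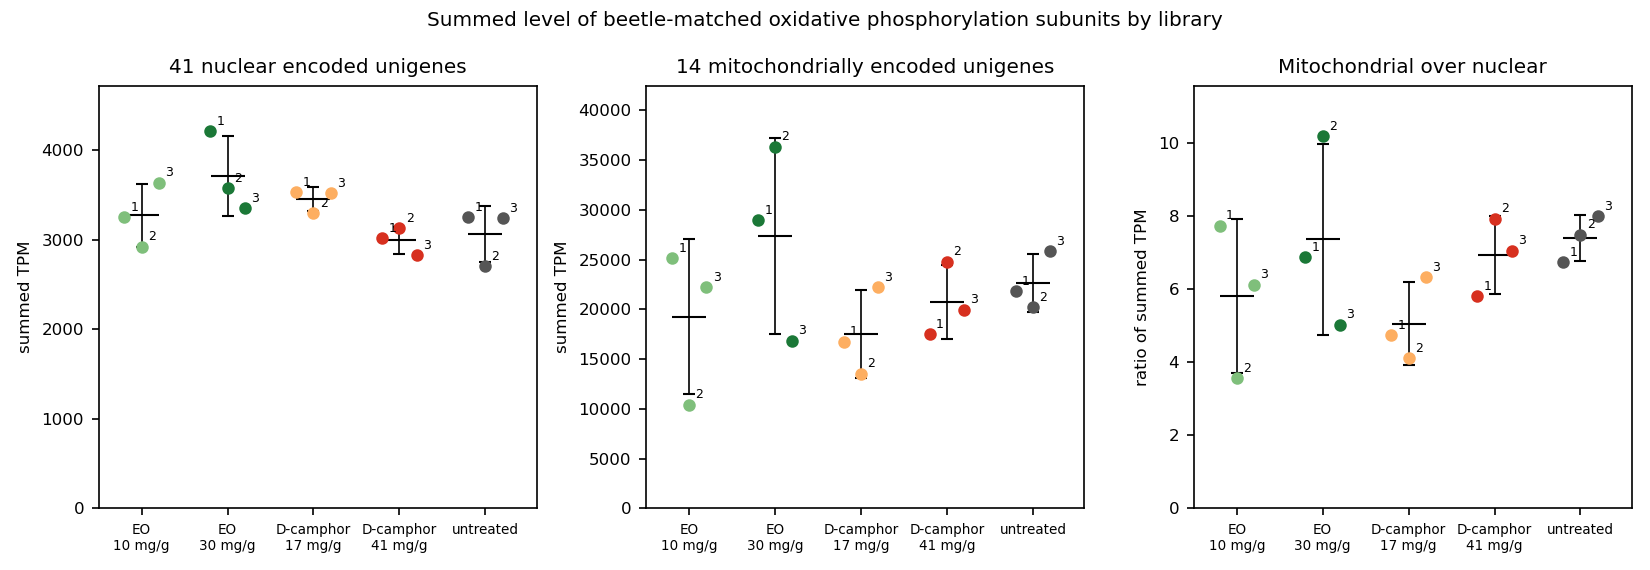
Summed TPM of the 41 nuclear encoded and the 14 mitochondrially encoded beetle-matched subunit unigenes, and their ratio, by diet. Points are libraries with their replicate number, bars are means and whiskers the SD of 3 libraries; nuclear sums on EO 30 mg/g and D-camphor 17 mg/g lay above all 3 untreated libraries, while mitochondrial sums on EO ran from 10413 to 36369.7 TPM.

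The nuclear encoded subunits were also added up in each library. Their sum over 41 unigenes was 3251, 2923 and 3635 TPM in larvae on EO 10 mg/g, 4212, 3575 and 3352 TPM on EO 30 mg/g, 3535, 3300.0 and 3524 TPM on D-camphor 17 mg/g, 3018, 3129 and 2830.1 TPM on D-camphor 41 mg/g and 3249, 2702 and 3239 TPM in untreated larvae. All 3 libraries on EO 30 mg/g and all 3 on D-camphor 17 mg/g lay above the 3 untreated ones, and both other diets overlapped them. The group means were 3713 ± 446 TPM on EO 30 mg/g, 3453 ± 132 TPM on D-camphor 17 mg/g and 3063 ± 313 TPM in untreated larvae (SD, n = 3 each). The first replicate on EO 30 mg/g was the highest of the 15 and the second untreated replicate the lowest.

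Taken one by one, 25 of the 25 abundant nuclear subunits had a log2 fold change above 0 on EO 30 mg/g against untreated, between 0.12 and 0.44 with a median of 0.28, where 40.5% of all unigenes tested lay above 0 and their median was -0.06. An unadjusted p under 0.05 in that direction was reached by 14 of them, against 3.46% of all unigenes. In 12 of the 25 the 3 treated libraries all exceeded the 3 untreated ones, against 4.56% of all unigenes. The 95% interval of every one of the 25 stayed within a 2-fold change. These counts leaned on single libraries. Of the 25, 18 were highest in the first EO 30 mg/g replicate and 14 lowest in the second untreated one. They are thus not 25 independent observations. Without the first EO 30 mg/g replicate, 24 of 25 were above 0 with a median of 0.19 and 2 under that p. Without the second untreated replicate the median was 0.20 with 2 under it. The count was 0 when only the libraries of the 2 diets entered the fit.

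On D-camphor 17 mg/g, 24 of the 25 abundant nuclear subunits were above 0 with a median of 0.21, against 55.3% of all unigenes and a median of 0.03. Here 7 had an unadjusted p under 0.05 in that direction, and 0 without the second untreated replicate or 2 under median-of-ratios scaling. Of the 25, 19 had D-camphor 17 mg/g libraries that all exceeded the untreated ones, against 8.35% of all unigenes. On EO 10 mg/g, 23 of 25 were above 0 with a median of 0.10, against 29.6% of all unigenes, with 0 at that p and 0 without overlap, where 1.44% of all unigenes were higher without overlap. The median of all unigenes on EO 10 mg/g was -0.12 in TPM and -0.0025 under median-of-ratios scaling, which put that of the 25 at 0.25, with 5 at that p. On D-camphor 41 mg/g, 8 of 25 were above 0 with a median of -0.04, against 41.8% of all unigenes, and 16 of 25 with a median of 0.01 under that scaling. There 2 of the 25 lay without overlap under the untreated libraries, against 6.54%. For the mean of the 4 diets 24 of 25 were above 0 with a median of 0.13, against 38.6%. The 4 comparisons use the same 3 untreated libraries, so their directions are not independent of each other.

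The dose steps do not involve the untreated libraries, and there the 2 additives ran in opposite directions. At EO 30 against EO 10 mg/g, 25 of 25 abundant nuclear subunits were higher with a median log2 difference of 0.16, against 61.4% of all unigenes and a median of 0.06. In 4 of them the groups did not overlap, against 6.63%, and without the 3 libraries of high cuticle markers 21 of 25 were higher with a median of 0.06. At an unadjusted p under 0.05, complex I had 2 of 11 higher, complex IV 1 of 4 and the other complexes 0, against 3.63%. Under median-of-ratios scaling complex I had 0 of 11 at that p. Between the D-camphor doses, 24 of 25 were lower at 41 mg/g with a median of -0.24, against 61.8% of all unigenes and a median of -0.07. At an unadjusted p under 0.05, 12 of the 25 were lower at D-camphor 41 mg/g, against 7.52% of all unigenes, and in 18 the libraries at 41 mg/g all lay under those at 17 mg/g, against 15.8%. Under median-of-ratios scaling 3 reached that p, with 22 of 25 lower and a median of -0.15. The difference between the steps, D-camphor minus EO, was below 0 in 25 of 25 with a median of -0.38, against 63.4% of all unigenes. Of these, 13 had an unadjusted p under 0.05, and 4 under median-of-ratios scaling, where the median of all unigenes was 0.019 against -0.12 in TPM.

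**Figure D2:**
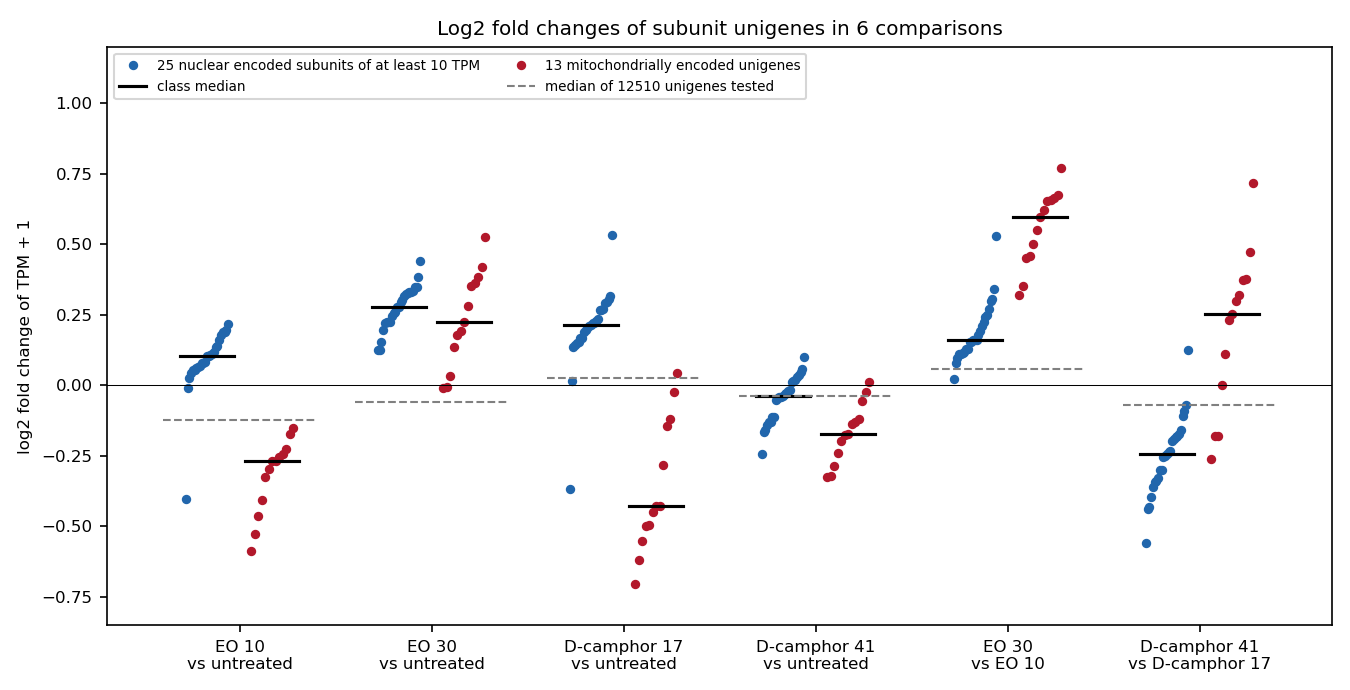
Log2 fold changes of TPM + 1 (vertical axis) in 6 comparisons (horizontal axis). Each point is a unigene, 25 abundant nuclear encoded subunits in blue and 13 mitochondrially encoded unigenes in red; solid lines are class medians and dashed lines the median of 12510 unigenes, and on D-camphor 17 mg/g the class medians lie at 0.21 and -0.43.

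Complex I had the most members. Its 24 beetle-matched nuclear unigenes summed to 769.8, 817 and 868 TPM on EO 10 mg/g, 1010.3, 885 and 869.8 TPM on EO 30 mg/g, 898, 875 and 889.5 TPM on D-camphor 17 mg/g, 775, 755 and 695 TPM on D-camphor 41 mg/g and 805, 699.6 and 779 TPM in untreated larvae. The 3 libraries on EO 30 mg/g and the 3 on D-camphor 17 mg/g exceeded every untreated library. Of its 11 abundant subunits, 8 were higher at an unadjusted p under 0.05 on EO 30 mg/g, against 3.46% of all unigenes. That count was 2 without the first EO 30 mg/g replicate, 2 without the second untreated replicate, 2 without the 3 libraries set apart above and 0 with only the groups compared. On D-camphor 17 mg/g 3 were higher at that p, against 4.56%, and 0 without the second untreated replicate. Between the D-camphor doses 5 were lower at 41 mg/g at that p, against 7.52%, and 2 under median-of-ratios scaling.

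Alpha subcomplex subunit 7 (TRINITY_DN7211_c0_g1), an accessory subunit of complex I, showed the dose pattern of this group most plainly. It stood at 55.2, 71.1 and 65.8 TPM on EO 10 mg/g, 81.6, 83.0 and 71.5 TPM on EO 30 mg/g, 75.9, 76.0 and 80.6 TPM on D-camphor 17 mg/g, 63.7, 53.6 and 54.1 TPM on D-camphor 41 mg/g and 60.4, 61.1 and 66.0 TPM in untreated larvae. The libraries at D-camphor 17 mg/g and at EO 30 mg/g lay above all libraries of the other dose of the same additive and above the untreated ones. The EO doses were apart by little, at 71.5 against 71.1 TPM. Its log2 difference was -0.44 ± 0.12 (SE) for D-camphor 41 against 17 mg/g, with an unadjusted p of 0.00279 and an adjusted p of 0.304 in limma. For EO 30 against EO 10 mg/g it was 0.30 ± 0.12 with an adjusted p of 0.969 in limma. The difference between these steps, -0.74 ± 0.17 with an adjusted p of 0.144 in limma, had the lowest adjusted p of all members and comparisons.

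Iron-sulfur protein 3, a core subunit of the peripheral arm of complex I (TRINITY_DN42945_c0_g1), had the largest positive log2 fold change of complex I for the mean of the 4 diets, 0.28 ± 0.15 with an adjusted p of 0.832 in limma. It was at 46.6, 51.0 and 63.2 TPM on EO 10 mg/g, 67.6, 57.8 and 65.1 TPM on EO 30 mg/g, 70.1, 65.6 and 67.4 TPM on D-camphor 17 mg/g, 55.0, 43.8 and 39.3 TPM on D-camphor 41 mg/g and 60.0, 35.6 and 46.8 TPM in untreated larvae. Only the D-camphor 17 mg/g libraries cleared all 3 untreated ones, which themselves spread widely. That difference was 0.53 ± 0.18 on the log2 scale with an adjusted p of 0.563 in limma.

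Alpha subcomplex subunit 13 (TRINITY_DN7029_c0_g1), an accessory subunit whose human counterpart is also known as GRIM-19, had the smallest p of the nuclear subunits on EO 30 mg/g. It was at 112, 91.5 and 98.1 TPM on EO 30 mg/g and 78.8, 74.2 and 83.0 TPM in untreated larvae, without overlap. The log2 fold change was 0.35 ± 0.11, with an adjusted p of 0.42 in limma. Flavoprotein 2, which carries an iron-sulfur cluster in the NADH-oxidising module (TRINITY_DN2099_c0_g1), was at 82.3, 66.3 and 56.8 TPM on EO 30 mg/g and 49.3, 55.0 and 55.5 TPM on EO 10 mg/g, with a log2 difference of 0.34 ± 0.13 and an adjusted p of 0.969 in limma. All of its EO 30 mg/g libraries exceeded its EO 10 mg/g libraries, although the third replicate did so by little.

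Flavoprotein 1, the subunit that binds NADH, was matched by several unigenes of very different levels, and so was iron-sulfur protein 2. The abundant flavoprotein 1 unigene (TRINITY_DN3035_c0_g1) had a mean of 79.4 TPM and the next one (TRINITY_DN2922_c0_g1) of 5.96 TPM, both chosen here after their values were seen. For iron-sulfur protein 2, 5 tested unigenes matched to the firefly Photinus pyralis had means of 1.07 to 5.21 TPM, while a 49 kDa subunit, the usual name of the same protein, stood at 82.1 TPM under a description outside the rule. The unigene TRINITY_DN8355_c0_g2, one of these 5, was at 0.63, 0.22 and 0.34 TPM on EO 10 mg/g, 0.29, 0.27 and 0.69 TPM on EO 30 mg/g, 0.91, 1.46 and 1.07 TPM on D-camphor 17 mg/g, 3.43, 1.43 and 0.90 TPM on D-camphor 41 mg/g and 0.87, 2.48 and 1.09 TPM in untreated larvae. Both EO diets lay under all untreated libraries and the D-camphor diets overlapped them. Its mean without the untreated libraries was 0.970 TPM, under the minimum of 1 TPM. Its mean on D-camphor 41 mg/g was higher than in untreated larvae, so its passing leaned on those libraries as well. Its comparisons with untreated larvae are given as values alone. It is also 1 of the 2 members counted above as lower on each EO diet. The 10 tested nuclear subunits under 10 TPM, of which 9 belong to complex I, showed no direction common to the diets. Of them, 4 were above 0 on EO 30 mg/g and 5 on D-camphor 17 mg/g, against 40.5% and 55.3% of all unigenes. On D-camphor 41 mg/g 8 were above 0, against 41.8%. These counts include TRINITY_DN8355_c0_g2, which is among the 8 on D-camphor 41 mg/g although its passing of the filter leaned on that diet. The count of 8 is therefore a description only.

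Complexes II and III contributed 2 abundant nuclear subunits each, and all 4 followed the common pattern. The iron-sulfur subunit of succinate dehydrogenase (TRINITY_DN4710_c0_g1), which passes electrons from the flavin subunit to ubiquinone, was at 36.0, 36.1 and 43.8 TPM on EO 10 mg/g, 45.7, 41.6 and 39.2 TPM on EO 30 mg/g, 44.2, 42.1 and 42.2 TPM on D-camphor 17 mg/g, 38.0, 36.5 and 34.4 TPM on D-camphor 41 mg/g and 37.8, 32.8 and 35.6 TPM in untreated larvae. EO 30 mg/g and D-camphor 17 mg/g lay above every untreated library. For the mean of the 4 diets its log2 fold change was 0.17 ± 0.08 with an adjusted p of 0.819 in limma. The small membrane anchor subunit of complex II (TRINITY_DN8062_c0_g1), described as cytochrome b small subunit, averaged 66.6 ± 6.51 TPM on EO 30 mg/g, 66.4 ± 1.94 TPM on D-camphor 17 mg/g and 59.6 ± 3.46 TPM in untreated larvae (SD, n = 3 each).

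In complex III, the Rieske iron-sulfur subunit, which takes electrons from ubiquinol (TRINITY_DN4675_c0_g1), was at 78.9, 76.9 and 98.2 TPM on EO 10 mg/g, 105, 102 and 89.2 TPM on EO 30 mg/g, 98.3, 93.0 and 102 TPM on D-camphor 17 mg/g, 77.8, 83.2 and 70.7 TPM on D-camphor 41 mg/g and 90.6, 68.5 and 81.3 TPM in untreated larvae. The D-camphor 17 mg/g libraries lay above the untreated ones and above those at 41 mg/g, with a log2 difference of -0.34 ± 0.13 for 41 against 17 mg/g and an adjusted p of 0.447 in limma. Subunit 2, one of the core proteins of complex III (TRINITY_DN5143_c0_g1), was at 59.2, 60.7 and 56.8 TPM on EO 30 mg/g, 60.9, 55.3 and 59.2 TPM on D-camphor 17 mg/g and 53.0, 44.6 and 47.9 TPM in untreated larvae, and neither diet overlapped the untreated libraries. Its log2 fold change for the mean of the 4 diets was 0.19 ± 0.09 with an adjusted p of 0.802 in limma.

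**Figure D3:**
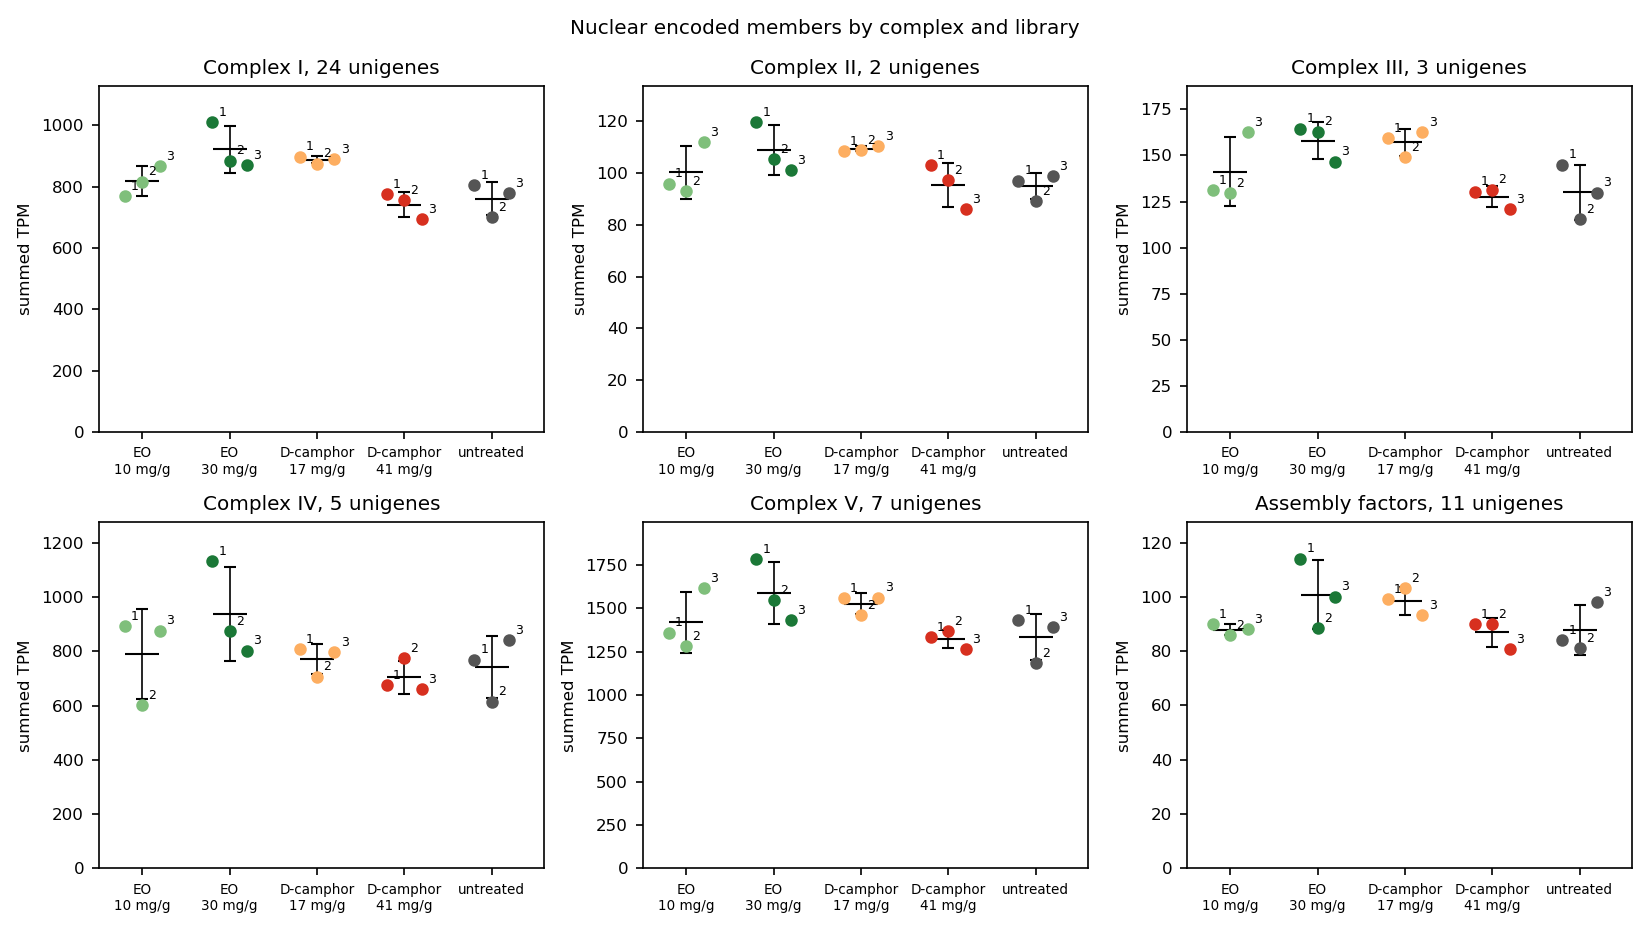
Summed TPM of the nuclear encoded, beetle-matched subunit unigenes of each complex and of the assembly factors, by diet. Points are libraries with their replicate number, bars are means and whiskers the SD of 3 libraries; the first EO 30 mg/g replicate is the highest library of all 15 in each of the 6 panels.

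In complex IV the nuclear subunits varied widely between the libraries of a diet. Its 5 nuclear subunit unigenes summed to 894, 601 and 877 TPM on EO 10 mg/g, 1133, 875 and 803 TPM on EO 30 mg/g, 809, 707 and 799 TPM on D-camphor 17 mg/g, 675, 775 and 662 TPM on D-camphor 41 mg/g and 770.3, 615 and 843 TPM in untreated larvae, and every diet overlapped the untreated libraries. The first EO 30 mg/g replicate stood above all others. Subunit 7C, a small structural subunit, makes up most of that sum, with means of 677 ± 123 TPM on EO 30 mg/g and 541 ± 96.9 TPM in untreated larvae (SD, n = 3 each). Subunit 5B (TRINITY_DN833_c1_g1), a zinc-binding subunit, separated more clearly, at 77.6, 66.8 and 58.9 TPM on EO 30 mg/g and 54.1, 44.8 and 55.7 TPM in untreated larvae. Subunit 6B (TRINITY_DN4818_c0_g3), which sits on the side that faces cytochrome c, was at 63.2, 57.1 and 55.9 TPM on D-camphor 17 mg/g, 41.6, 51.8 and 37.4 TPM on D-camphor 41 mg/g and 51.8, 41.9 and 53.0 TPM in untreated larvae, and its log2 difference between the D-camphor doses was -0.43 ± 0.15 with an adjusted p of 0.375 in limma. Subunits 7C, 5B and 6B were singled out after their values were seen.

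In complex V, the 2 main subunits of the catalytic head were both higher on EO 30 mg/g and D-camphor 17 mg/g. ATP synthase subunit alpha (TRINITY_DN7116_c0_g3), the non-catalytic one of the pair, was at 372, 351 and 462 TPM on EO 10 mg/g, 458, 448 and 407 TPM on EO 30 mg/g, 439, 415 and 461 TPM on D-camphor 17 mg/g, 361, 369 and 337 TPM on D-camphor 41 mg/g and 388, 306 and 364 TPM in untreated larvae. EO 30 mg/g and D-camphor 17 mg/g lay above every untreated library. For the mean of the 4 diets the log2 fold change was 0.20 ± 0.10 with an adjusted p of 0.827 in limma. Subunit beta, which carries the catalytic sites (TRINITY_DN660_c0_g1, named after its values were seen), averaged 93.2 ± 6.78 TPM on EO 30 mg/g, 94.1 ± 4.40 TPM on D-camphor 17 mg/g and 81.3 ± 8.69 TPM in untreated larvae (SD, n = 3 each). Subunit delta of the central stalk (TRINITY_DN8301_c0_g1) was at 149, 131 and 135 TPM on D-camphor 41 mg/g and 187, 179 and 180.3 TPM on D-camphor 17 mg/g, without overlap. That log2 difference was -0.40 ± 0.12, with an unadjusted p of 0.00492 and an adjusted p of 0.32 in limma.

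The lipid-binding ring protein was matched by 2 unigenes that did not move alike. The abundant one (TRINITY_DN15839_c0_g1) was at 521, 453 and 569.7 TPM on EO 10 mg/g, 671, 563 and 499 TPM on EO 30 mg/g, 566, 519 and 571 TPM on D-camphor 17 mg/g, 513, 519.6 and 503 TPM on D-camphor 41 mg/g and 499, 438 and 542 TPM in untreated larvae. The lesser one (TRINITY_DN6056_c0_g1) was at 29.2, 26.7 and 75.8 TPM on EO 10 mg/g, 72.3, 38.7 and 65.4 TPM on EO 30 mg/g, 33.0, 47.9 and 40.8 TPM on D-camphor 17 mg/g, 46.5, 51.2 and 35.3 TPM on D-camphor 41 mg/g and 73.6, 46.4 and 41.1 TPM in untreated larvae. Its 3 libraries on EO 10 mg/g alone spanned the whole range of the series. It is the 1 abundant nuclear subunit below 0 on D-camphor 17 mg/g and the 1 above 0 between the D-camphor doses. Its log2 fold change for the mean of the 4 diets was -0.22 ± 0.30 with an adjusted p of 0.923 in limma, and 0.02 without the first untreated replicate. Reads of near-identical copies may be shared between such unigenes, so their separate values are uncertain. Subunit g (TRINITY_DN3891_c0_g1), a small membrane subunit at 1.69 TPM, was at 2.94, 1.26 and 2.51 TPM on D-camphor 41 mg/g and 1.90, 1.13 and 1.62 TPM in untreated larvae, which overlap. The log2 fold change was 0.32 ± 0.22 with an adjusted p of 0.977 in limma.

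Assembly factors, which build the complexes without staying in them, were present at 3.57 to 14.5 TPM. The 11 summed to 89.9, 85.9 and 88.0 TPM on EO 10 mg/g, 114, 88.4 and 100.1 TPM on EO 30 mg/g, 99.2, 103 and 93.2 TPM on D-camphor 17 mg/g, 90.0, 89.8 and 80.9 TPM on D-camphor 41 mg/g and 84.1, 81.2 and 98.2 TPM in untreated larvae. Every diet overlapped the untreated libraries. On EO 30 mg/g 11 of 11 had a log2 fold change above 0, with a median of 0.16, against 40.5% of all unigenes. There 0 were higher at an unadjusted p under 0.05 and 0 higher without overlap, against 3.46% and 4.56%. On D-camphor 17 mg/g 10 of 11 were above 0 with a median of 0.15, against 55.3% of all unigenes. Of the 11, 4 lay above the untreated libraries without overlap, against 8.35%. Between the D-camphor doses 10 of 11 were lower at 41 mg/g, against 61.8%. An unadjusted p under 0.05 was reached by 2 of these, against 7.52%. COX18, which helps insert cytochrome c oxidase subunit II into the membrane (TRINITY_DN22040_c0_g1), had the largest positive log2 fold change of complex IV for the mean of the 4 diets, 0.22 ± 0.15 with an adjusted p of 0.872 in limma. It was at 6.52, 7.37 and 6.03 TPM on D-camphor 17 mg/g and 5.44, 3.82 and 5.85 TPM in untreated larvae.

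Mitochondrially encoded subunits varied widely between libraries of the same diet. Their 14 unigenes summed to 25155, 10413 and 22243 TPM on EO 10 mg/g, 28966.5, 36369.7 and 16845 TPM on EO 30 mg/g, 16749, 13546.5 and 22265 TPM on D-camphor 17 mg/g, 17508, 24806 and 19962 TPM on D-camphor 41 mg/g and 21860.0, 20225.5 and 25890.1 TPM in untreated larvae. Every diet overlapped the untreated libraries. The second replicates of the EO diets were the extremes of the whole series, the lowest on 10 mg/g and the highest on 30 mg/g. These transcripts made up 1.04% to 3.64% of all TPM in a library.

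The 13 tested mitochondrial unigenes moved together from library to library. All 13 were lowest in the second EO 10 mg/g replicate, 11 were highest in the second EO 30 mg/g replicate and 2 in the first. Their highest and lowest libraries differed by a median of 3.48-fold, against 1.58-fold for the 35 tested nuclear subunits, and the median coefficient of variation within a diet was 25.2% against 9.81%. All 13 had their highest diet mean on EO 30 mg/g, as had 21 of the 35 tested nuclear subunits. Their lowest diet mean fell on D-camphor 17 mg/g in 9 of 13, against 3 of the 35 nuclear ones. The difference between these classes was not tested. Since all come from 1 small genome, they are not 13 independent observations.

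Against untreated larvae, 0 of the 13 were above 0 on EO 10 mg/g with a median log2 fold change of -0.27, against 29.6% of all unigenes and a median of -0.12. On EO 30 mg/g 11 were above 0 with a median of 0.22, against 40.5% of all unigenes. D-camphor at 17 mg/g had 1 above 0 with a median of -0.43, against 55.3%, and D-camphor at 41 mg/g had 1 with -0.17, against 41.8%. An unadjusted p under 0.05 was reached by 0 in all of these comparisons and in both dose steps. On D-camphor 17 mg/g the groups did not overlap in 4 of the 13, all lower, against 2.75% of all unigenes. Without the second EO 30 mg/g replicate, 7 of 13 were above 0 on that diet with a median of 0.01. Between the EO doses 13 of 13 were higher at 30 mg/g with a median of 0.60, against 61.4% of all unigenes. That median was 0.16 without the second EO 10 mg/g replicate and 0.36 without the second EO 30 mg/g replicate. The median on EO 10 mg/g was 0.08 without its second replicate. Between the D-camphor doses 10 of 13 were higher at 41 mg/g with a median of 0.25, against 38.2% of all unigenes. It was 0.05 without the second D-camphor 17 mg/g replicate and 0.11 without the second D-camphor 41 mg/g replicate.

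Among these genes, cytochrome c oxidase subunit 1 (TRINITY_DN8201_c1_g1) was at 4488, 2494 and 4296 TPM on EO 10 mg/g, 3885, 7226 and 3325 TPM on EO 30 mg/g, 3257, 2926 and 4100.3 TPM on D-camphor 17 mg/g, 4072, 5242 and 3972 TPM on D-camphor 41 mg/g and 4510.5, 4234 and 4968 TPM in untreated larvae. The D-camphor 17 mg/g libraries lay under all 3 untreated ones, with a log2 fold change of -0.43 ± 0.29 and an adjusted p of 0.933 in limma. Subunit II, which receives electrons from cytochrome c (TRINITY_DN34686_c0_g1), was at 4473.5, 869.5 and 3109 TPM on EO 10 mg/g, 4792, 4569 and 2207 TPM on EO 30 mg/g, 2002, 1233 and 3390.0 TPM on D-camphor 17 mg/g, 2607, 3940.3 and 3616 TPM on D-camphor 41 mg/g and 2821, 2976 and 4324 TPM in untreated larvae. Its replicates on EO 10 mg/g spread more widely than those of any other diet. Subunit III (TRINITY_DN40971_c2_g1), a core subunit without redox centres, was at 2315, 1677 and 2752 TPM on D-camphor 17 mg/g and 2943, 2831 and 3602 TPM in untreated larvae, without overlap, and its log2 fold change was -0.50 ± 0.35 with an adjusted p of 0.943 in limma. A second subunit III unigene, TRINITY_DN22937_c0_g1, was listed at 0 in 11 of the 15 libraries and at no more than 1.0 TPM in the others.

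Complex I subunit 1, a membrane subunit at the ubiquinone site (TRINITY_DN37919_c1_g1), was at 3299, 1731 and 3805 TPM on EO 10 mg/g, 4459.5, 6921 and 2739.9 TPM on EO 30 mg/g, 3021, 2903 and 4109 TPM on D-camphor 17 mg/g, 2409.8, 3496 and 2482 TPM on D-camphor 41 mg/g and 3738, 3010.3 and 3368 TPM in untreated larvae. Its second unigene (TRINITY_DN13798_c4_g1) averaged 751 ± 281 TPM on EO 30 mg/g and 532 ± 40.7 TPM in untreated larvae. The proton-pumping subunits 2 (TRINITY_DN5504_c0_g1), 4 (TRINITY_DN4738_c5_g1) and 5 (TRINITY_DN42160_c0_g1) had means of 1291, 299 and 208 TPM over the 15 libraries. Subunit 2 averaged 1503 ± 522 TPM on EO 30 mg/g and 1453 ± 244 TPM in untreated larvae, and the log2 fold changes of subunits 4 and 5 on that diet were 0.18 and 0.35. Subunit 6, a small membrane subunit (TRINITY_DN13798_c5_g1), was the least abundant of the tested ones at 12.6 TPM. Both D-camphor diets lay under the untreated libraries, at 10.4, 7.33 and 12.4 TPM on D-camphor 17 mg/g, 12.3, 12.1 and 10.9 TPM on D-camphor 41 mg/g and 17.97, 13.98 and 13.21 TPM in untreated larvae. ATP synthase subunit 6, which forms the proton channel of complex V (TRINITY_DN40971_c3_g1), was at 846, 269.8 and 662 TPM on EO 10 mg/g, 1024, 1123 and 518 TPM on EO 30 mg/g and 667, 558 and 752 TPM in untreated larvae, with wide overlap.

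**Figure D4:**
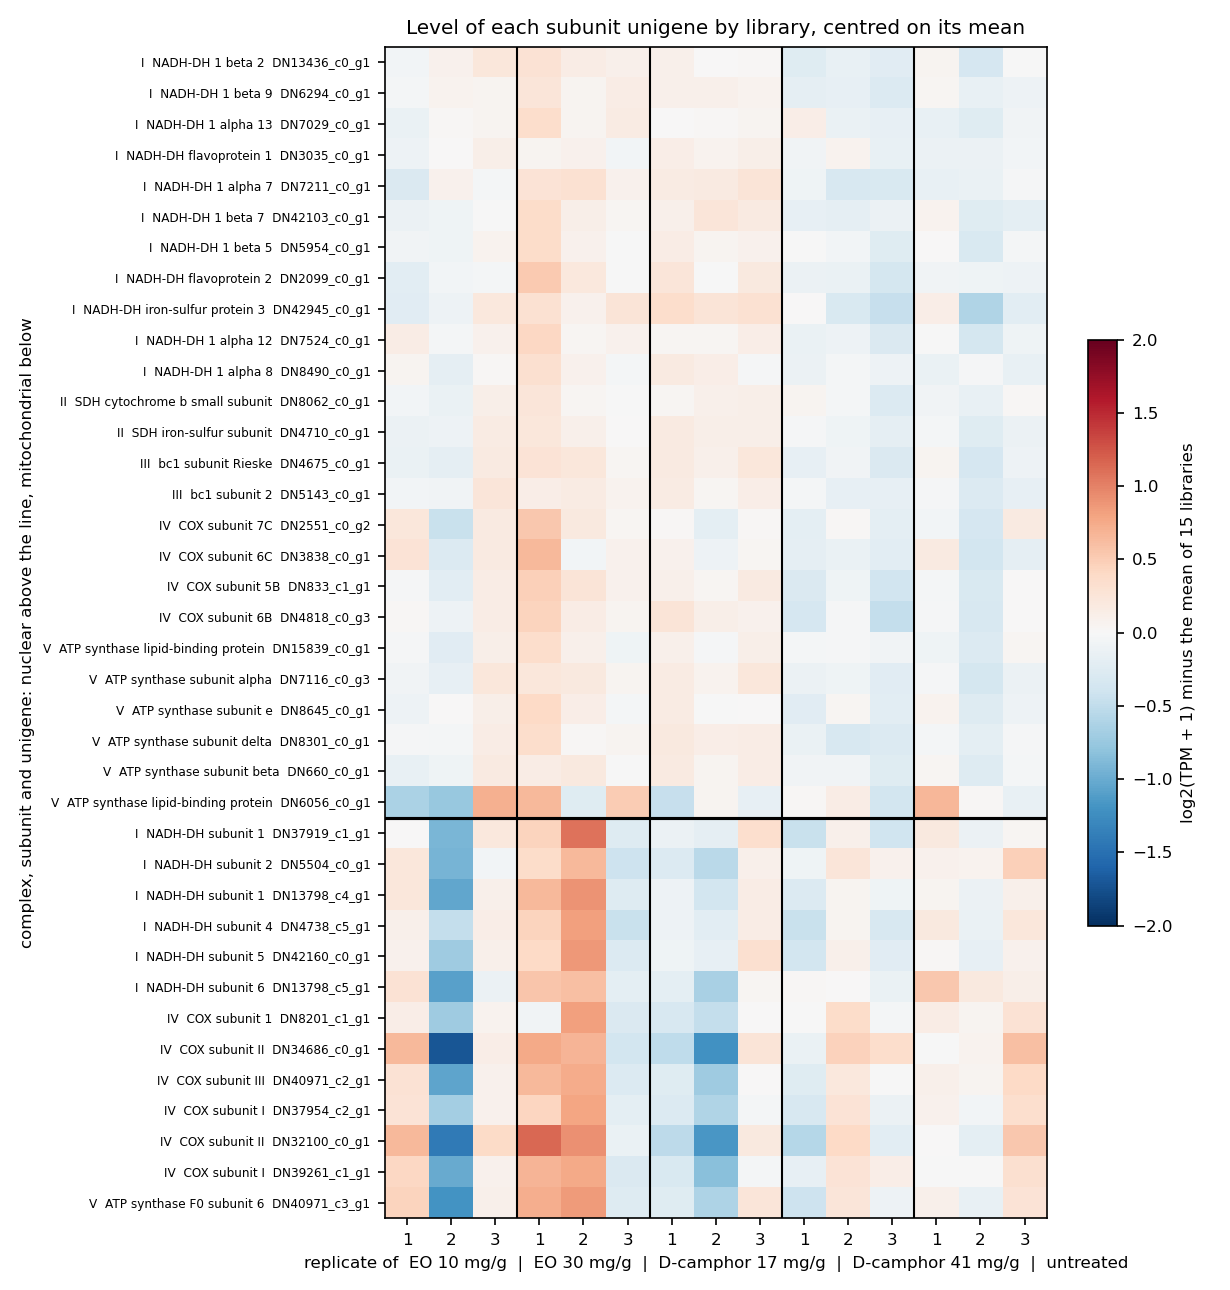
Level of 25 abundant nuclear encoded subunits (above the line) and 13 mitochondrially encoded unigenes (below) in each of 15 libraries (columns, by diet and replicate), as log2(TPM + 1) minus the unigene's mean over the libraries. Columns 2 of EO 10 mg/g and 2 of EO 30 mg/g stand out in the lower block, where all 13 rows are lowest in the first of these columns.

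The ratio of mitochondrial to nuclear subunits therefore varied between libraries. It was 7.74, 3.56 and 6.12 on EO 10 mg/g, 6.88, 10.2 and 5.02 on EO 30 mg/g, 4.74, 4.11 and 6.32 on D-camphor 17 mg/g, 5.8, 7.93 and 7.05 on D-camphor 41 mg/g and 6.73, 7.49 and 7.99 in untreated larvae. The 3 libraries on D-camphor 17 mg/g lay under all 3 untreated ones, while EO 30 mg/g held the highest value of the series beside 1 lower than every untreated library. Group means were 5.05 ± 1.14 on D-camphor 17 mg/g and 7.40 ± 0.636 in untreated larvae (SD, n = 3 each). No test was made of these sums, since they add up members chosen together.

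Members with a best match outside the beetles were scarce and irregular. The 58 summed to 23.8, 27.0 and 16.8 TPM on EO 10 mg/g, 38.5, 18.5 and 25.2 TPM on EO 30 mg/g, 37.7, 27.1 and 43.4 TPM on D-camphor 17 mg/g, 15.6, 24.7 and 41.2 TPM on D-camphor 41 mg/g and 75.7, 36.8 and 19.9 TPM in untreated larvae. The first untreated replicate was highest and every diet overlapped the untreated libraries. A match to a marine animal says only what the nearest database entry was.

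The lowest adjusted p of any member against untreated larvae belonged to one of these, a cytochrome c oxidase subunit I unigene matched to the sea urchin Diadema setosum (TRINITY_DN14843_c0_g2). It was at 1.45, 1.96 and 1.16 TPM on EO 10 mg/g, 1.19, 0.90 and 1.70 TPM on EO 30 mg/g, 1.68, 1.08 and 0.98 TPM on D-camphor 17 mg/g, 0.85, 1.15 and 1.26 TPM on D-camphor 41 mg/g and 7.51, 3.87 and 1.62 TPM in untreated larvae. The first and second untreated replicates were above all 12 terpenoid libraries and the third was among them. The log2 fold change for the mean of the 4 diets was -1.08 ± 0.26, with an unadjusted p of 0.00137 and an adjusted p of 0.249 in limma. It passed the threshold when the third untreated replicate was left out, at a log2 fold change of -1.51 and an adjusted p of 0.0201 in limma, and the corresponding values on EO 30 mg/g were -1.52 and 0.0481. The acorn worm matches, cytochrome c oxidase subunit II of Balanoglossus carnosus (TRINITY_DN41245_c0_g1) and subunit I of Saccoglossus kowalevskii (TRINITY_DN39345_c0_g1), were both highest in the first untreated replicate, at 7.35 and 5.99 TPM, and had means over the 15 libraries of 3.60 and 2.80 TPM.

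**Figure D5:**
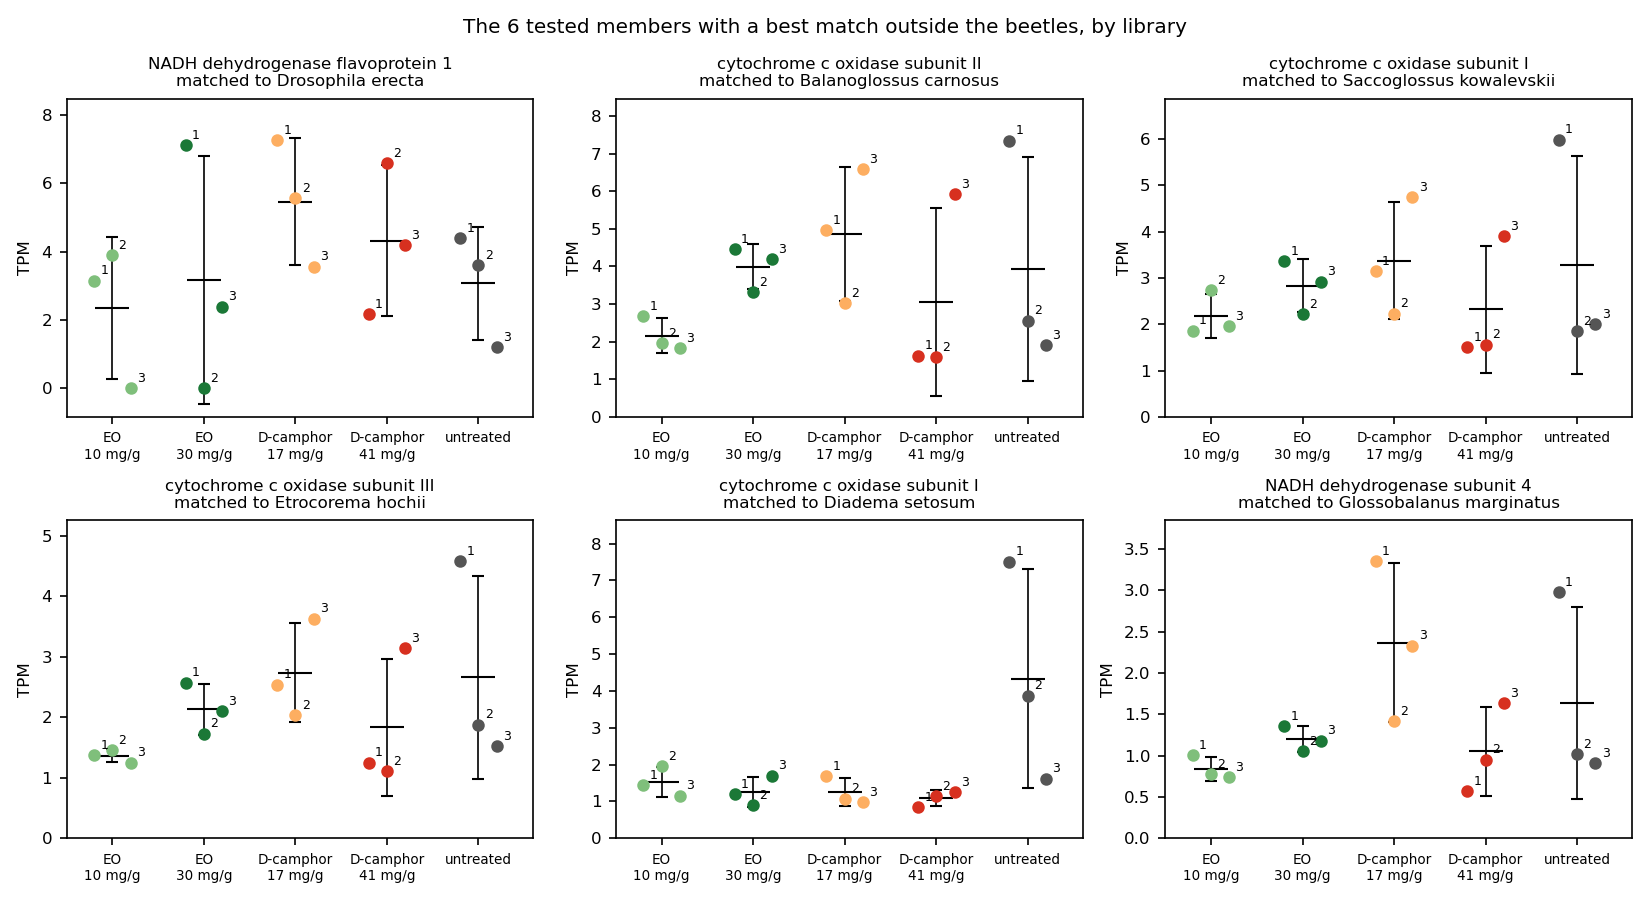
TPM of the 6 tested members whose best match was not a beetle, by diet. Points are libraries with their replicate number, bars are means and whiskers the SD of 3 libraries; the sea urchin match is highest in the first untreated replicate, at 7.51 TPM.

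Genes that work beside the complexes were examined as 5 lists, with 0 called in any comparison. Of the respiratory chain members outside the rule, 7 of 12 were tested, with medians of 0.27 on EO 30 mg/g and 0.14 on D-camphor 17 mg/g. Among them cytochrome c, the mobile electron carrier (TRINITY_DN10020_c1_g2), was at 267, 228 and 179 TPM on EO 30 mg/g, 252, 234 and 229.7 TPM on D-camphor 17 mg/g, 172, 125 and 127 TPM on D-camphor 41 mg/g and 213, 107 and 135 TPM in untreated larvae. The D-camphor 17 mg/g libraries exceeded all those of D-camphor 41 mg/g and of the untreated diet. The chain medians pool nuclear members with mitochondrially encoded cytochrome b. On D-camphor 17 mg/g cytochrome b averaged 1110 TPM (TRINITY_DN13798_c1_g1), 1554 TPM (TRINITY_DN8537_c0_g1) and 675 TPM (TRINITY_DN8838_c1_g1). In untreated larvae these averaged 1310, 1710 and 799 TPM, with overlapping libraries. The nuclear cytochrome c1, 75 kDa and 49 kDa subunits averaged 124, 54.95 and 87.6 TPM on that diet, against 105, 45.4 and 79.6 TPM. The tricarboxylic acid cycle, which supplies NADH and succinate, had 9 of 17 members tested, with median log2 fold changes of 0.19 on EO 30 mg/g and 0.27 on D-camphor 17 mg/g, and a median of -0.24 for D-camphor 41 against 17 mg/g, where 8 of 9 were lower. Carriers and coenzyme Q synthesis had 6 of 10 tested with medians of 0.25 and 0.14 on the same 2 diets, and mitochondrial protein import 6 of 10 with 0.18 and 0.11. Glycolysis, in the cytosol, had 10 of 32 tested, with medians of -0.02 on EO 30 mg/g, 0.14 on D-camphor 17 mg/g and -0.32 between the D-camphor doses. The tested ones include TRINITY_DN11868_c0_g3 and TRINITY_DN24918_c0_g2, matched outside the beetles to Ciona intestinalis. Both had their highest diet mean in untreated larvae, at 1.53 and 4.55 TPM. Without the untreated libraries the first would not have reached the minimum of 1 TPM. At an unadjusted p under 0.05, EO 30 mg/g had 2 of 7 higher in the chain, 3 of 6 among carriers, 1 of 9 in the cycle, 1 of 6 in import and 0 of 10 in glycolysis, against 3.46% of all unigenes. In the cycle 1 of 9 was lower, against 5.34%. At that p D-camphor 17 mg/g had 2 of 7 higher in the chain and 3 of 9 in the cycle, and 0 in the other 3 lists, against 4.56%.

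Markers of other tissues varied between the libraries. Without the 3 libraries of high cuticle markers, the 25 abundant nuclear subunits had a median log2 fold change of 0.19 on EO 30 mg/g with 24 above 0 and 2 at an unadjusted p under 0.05, 0.21 on D-camphor 17 mg/g with 8 at that p, and -0.28 between the D-camphor doses with 9 lower at that p. Their median without these libraries was 0.13 on EO 10 mg/g, -0.06 on D-camphor 41 mg/g and -0.32 for the difference between the dose steps. For the 13 mitochondrial unigenes it was -0.56 on EO 10 mg/g, 0.13 on EO 30 mg/g, -0.31 on D-camphor 41 mg/g, 0.72 for EO 30 against EO 10 mg/g and 0.11 for D-camphor 41 against 17 mg/g. On EO 10 mg/g 1 of these 13 was then lower at an unadjusted p under 0.05. Muscle markers, 43 unigenes of a tissue rich in mitochondria, summed to 11842 to 14797 TPM on EO 30 mg/g, 13515.5 to 16729 TPM on D-camphor 17 mg/g and 12206 to 17776 TPM in untreated larvae, all overlapping. Of the 36 tested muscle markers, 9 were above 0 on EO 30 mg/g with a median log2 fold change of -0.17, against 40.5% of all unigenes and a median of -0.06. On D-camphor 17 mg/g 30 were above 0 with a median of 0.11, where 55.3% of all unigenes were above 0. At D-camphor 41 against 17 mg/g 24 of the 36 were lower with a median of -0.07, near the 61.8% and -0.07 of all unigenes. Fat body markers, 13 unigenes, summed to 3171 to 7213 TPM on EO 30 mg/g and 3074 to 4461 TPM in untreated larvae, with 0 of 13 at 0 in all EO 30 mg/g libraries and 6 of 13 in all untreated ones. Midgut markers, 83 unigenes, summed to 63607.5 to 78982 TPM on EO 30 mg/g and 63266 to 82214 TPM in untreated larvae. Across the 15 libraries haemocyte markers summed to 194 to 400.0 TPM, nervous system markers to 54.9 to 78.4 TPM and germ line markers to 23.2 to 35.1 TPM. The 6 testis markers summed to 77.8 to 82.9 TPM on D-camphor 17 mg/g, above the 55.6 to 74.4 TPM of untreated larvae. The part of tissue make-up in the levels of the members was not tested.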

How the data were processed

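The submitters deposited 1 table of TPM values for assembled unigenes with the description of each unigene's best protein match; per the labels' protocols the RNA came from whole larvae by TRIzol extraction and the libraries from a NEBNext Ultra kit. The assembler, the aligner, the counting and its handling of strand are not given in sources used here, and none of the 15 value columns was left out. The words of the rule were searched in the descriptions, in any case. Members and all lists were chosen with earlier results of these data known. TPM keeps no counts, so limma 3.58.1 in R 4.3.3 was fitted to log2(TPM + 1) of the 12510 unigenes that averaged 1 TPM or more over the libraries, with 1 mean per diet, a mean-variance trend and 10 residual degrees of freedom. Benjamini-Hochberg adjustment ran over all of them, and the threshold was 0.05. Sums, ranges and figures were made with Python 3.11.15, pandas 2.3.3, numpy 2.4.6 and matplotlib 3.10.9. Sums of beetle-matched subunits leave out the 14 members matched to other insects. Named are the mitochondrially encoded members, the 2 most abundant and the most changed for the mean of the 4 diets in each complex, the 2 of smallest p per diet comparison and dose step, and the 3 most abundant matched outside the insects. Others are said to be chosen after their values were seen. The related lists were other chain members, carriers and coenzyme Q, the tricarboxylic acid cycle, glycolysis and import, and the marker lists muscle, fat body, midgut, cuticle, haemocyte, nervous system, testis and germ line. Tried instead were no filter, a mean of at least 5 TPM, a pseudocount of 0.1, median-of-ratios scaling, the replicate number as a block, only the groups compared, each library left out, sums without the most abundant member, and, chosen after seeing the data, the 3 libraries with the highest scores on principal component 1 left out. The fit was tested on simulated data. No sequences were used here.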

Additional observations from a re-analysis of the deposited data

How the results depend on the processing

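The members' own results held their direction in most settings. With 22 alternatives, 0 members were called in every comparison except for 1 without the third untreated replicate on EO 30 mg/g and for the mean of the 4 diets (range 0 to 1 over libraries left out), which was the sea urchin match, and 1 for the mean of the 4 diets without a filter. This last one was an ATP synthase unigene with no species (TRINITY_DN14343_c0_g1) at a mean of 0.0687 TPM. With single libraries left out, the median log2 fold change of the abundant nuclear subunits stayed between 0.19 and 0.36 on EO 30 mg/g, 0.15 and 0.26 on D-camphor 17 mg/g, and -0.28 and -0.20 between the D-camphor doses. That of the mitochondrial subunits on EO 10 mg/g ran from -0.56 to 0.08. Median-of-ratios scaling moved the abundant nuclear median on EO 10 mg/g to 0.25 and for the difference between the dose steps to -0.20, that of all members to 0.16 and -0.19, and the log2 ratio of the complex II sum on EO 10 mg/g to 0.22. Without a filter the median of all members was -0.11 on EO 10 mg/g, 0.038 on EO 30 mg/g and -0.21 for the difference between the steps. Without its most abundant member the complex II sum on D-camphor 17 mg/g had a log2 ratio of 0.28. The lipid-binding unigene TRINITY_DN6056_c0_g1 ranged from -0.39 to 0.024 for the mean of the 4 diets over libraries left out and turned at 0.024 without the first untreated replicate.

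Counts of unigenes called over the whole table depended more on the setting, and the cause was not tested beyond the alternative itself. Without a filter they were 42, 55, 48 and 50 for the 4 diets in the order EO 10, EO 30, D-camphor 17 and D-camphor 41 mg/g, 83 for their mean, 5 and 10 for the dose steps of EO and D-camphor and 2 for the difference. Only the groups compared gave 1 on EO 10 mg/g, 25 on D-camphor 17 mg/g, 0 on D-camphor 41 mg/g, 0 and 16 for the EO and D-camphor steps and 1 for the difference. A pseudocount of 0.1 gave 5 on D-camphor 41 mg/g, 2 for the EO step and 1 for the difference, and a mean of at least 5 TPM gave 11 on D-camphor 17 mg/g. Median-of-ratios scaling gave 13 on EO 30 mg/g, 5 on D-camphor 41 mg/g and 17 for the mean. Leaving out the 3 libraries with the highest scores on principal component 1 there were 5 on D-camphor 41 mg/g, 23 for the mean and 0 for the EO step. Single libraries left out gave 4 to 10 on EO 10 mg/g, 8 to 26 on EO 30 mg/g, 1 to 8 on D-camphor 17 mg/g, 1 to 10 on D-camphor 41 mg/g, 7 to 20 for the mean, 1 to 5 for the EO step, 0 to 8 for the D-camphor step and 0 to 5 for the difference. Between libraries of the same replicate number, correlations of their deviations from the diet mean ran from -0.34 to 0.56. The median correlations were -0.09, 0.05 and 0.02 for replicates 1, 2 and 3. Pairs of different number were not compared, so these values cannot settle whether the number pairs libraries. With the number as a block 12 unigenes were called on EO 30 mg/g and 1 on D-camphor 17 mg/g, and 0 members in any comparison.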

Other observations

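Several mitochondrially encoded subunits are split over more than 1 unigene, and the parts of a gene did not keep a fixed ratio. For cytochrome c oxidase subunit 1, the ratio of TRINITY_DN8201_c1_g1 to TRINITY_DN37954_c2_g1 was lowest at 1.14 in the first EO 30 mg/g replicate and highest at 2.0 in the first D-camphor 41 mg/g replicate. The ratio of the same unigene to TRINITY_DN39261_c1_g1 ran from 2.36 to 5.12, and the lowest was again the first EO 30 mg/g replicate. For subunit II, TRINITY_DN34686_c0_g1 over TRINITY_DN32100_c0_g1 ran from 2.05 to 3.98, also lowest in that library. The first EO 30 mg/g replicate had 3413 TPM of TRINITY_DN37954_c2_g1, against a mean of 2619 TPM over the 15 libraries. It had 1643 TPM of TRINITY_DN39261_c1_g1, against a mean of 1078 TPM, and 2332 TPM of TRINITY_DN32100_c0_g1, against 1174 TPM. Complex I subunit 1 kept closer to 1 ratio, between 5.03 and 7.10 for TRINITY_DN37919_c1_g1 over TRINITY_DN13798_c4_g1. The 2 lipid-binding unigenes of ATP synthase had a ratio of 17.9 in the first EO 10 mg/g replicate, the highest of the 15, and 6.78 in the first untreated replicate, the lowest. Unigenes of 1 gene that share reads cannot be separated from these values, so the level of each part is uncertain.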
